A study of Homo sapiens with 2 samples.

Results

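The genes described here belong to the germline programme: 37 genes of the piRNA pathway, of meiosis and of germ cell RNA regulation, chosen by name from a list of their known roles. Of these, 30 had a value of their own, out of 14232 genes with 1 value on the arrays. The other 7 had none, because TDRD7 and SYCE2 were on no named probe set and TDRD6, SYCP3, MSH4, MSH5 and DAZL were measured only on probe sets that also name other genes. The samples were 2 untreated human diffuse large B cell lymphoma lines, SUDHL6 and HT, each kept in serum-supplemented RPMI medium and measured on 1 Affymetrix exon array of total RNA. The series title places them in work on killing lymphoma cells with an inhibitor of Polycomb repressive complex 2 (PRC2). Each line is a single established tumour line, so a difference between them is a difference between these lines and not between classes of lymphoma.

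Germline genes serve the making of eggs and sperm and are kept silent in most body cells by DNA methylation and by Polycomb-type complexes. The piRNA pathway loads small RNAs onto PIWI proteins, which silence transposons in germ cells, with Tudor-domain proteins as scaffolds. Meiosis uses its own cohesin subunits, a protein axis and a synaptonemal complex that pairs homologous chromosomes, and a recombinase that repairs programmed breaks. Tumour cells of many kinds are known to express scattered members of this programme.

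Each value is a log2 expression value after RMA, and a difference is SUDHL6 minus HT, so negative differences are higher in HT. A dim threshold was set for each line from 225 olfactory receptor genes, taken as genes that lymphoma cells do not use, as the 95th percentile of their values. This gave 3.81 for SUDHL6 and 4.11 for HT. A gene counted as different where the lines were at least 1 apart and the higher of its values reached the threshold of that line. A fold is written as "at least" where the lower value lay below the dim threshold and was replaced by that level. With 1 array per line there was no spread between replicates, and so no test, standard error or p-value. The nearest measure of noise was the central 95% of the olfactory receptor differences, from -1.03 to 1.26. The cut of 1 lies inside this range on the SUDHL6 side and, only just, on the HT side. A gene counted as higher in SUDHL6 by less than 1.26 is therefore within the range of genes taken as unexpressed. The same holds for a gene counted as higher in HT with a difference between -1 and -1.03. The number of arrays limits the precision of every value.

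Most of the germline genes lay at the level of unexpressed genes in both lines, and 5 stood apart. GTSF1, SMC1B and TEX9 were higher in HT, and ASZ1 and STAG3 were higher in SUDHL6. That is 5 of 30 members (16.7%), while 8.12% of all genes met the same rule. In the direction of SUDHL6 it was 2 members (6.67%) beside 3.5% of all genes, and in the direction of HT 3 members (10%) beside 4.62%. Among the olfactory receptor genes themselves 5 of 225 (2.22%) met it. That share is low by construction, since the threshold was set from these genes and only 18 of them reached it. Without the threshold, 17 of them were at least 1 apart. Only 8 of the 30 members (26.7%) reached the dim threshold in their higher line, beside 66.1% of all genes. The members were chosen with earlier results of these arrays known, GTSF1 in particular, so these counts describe the list and support nothing further. The median difference over the 30 members was -0.06, beside -0.04 over all genes.

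**Figure D1:**
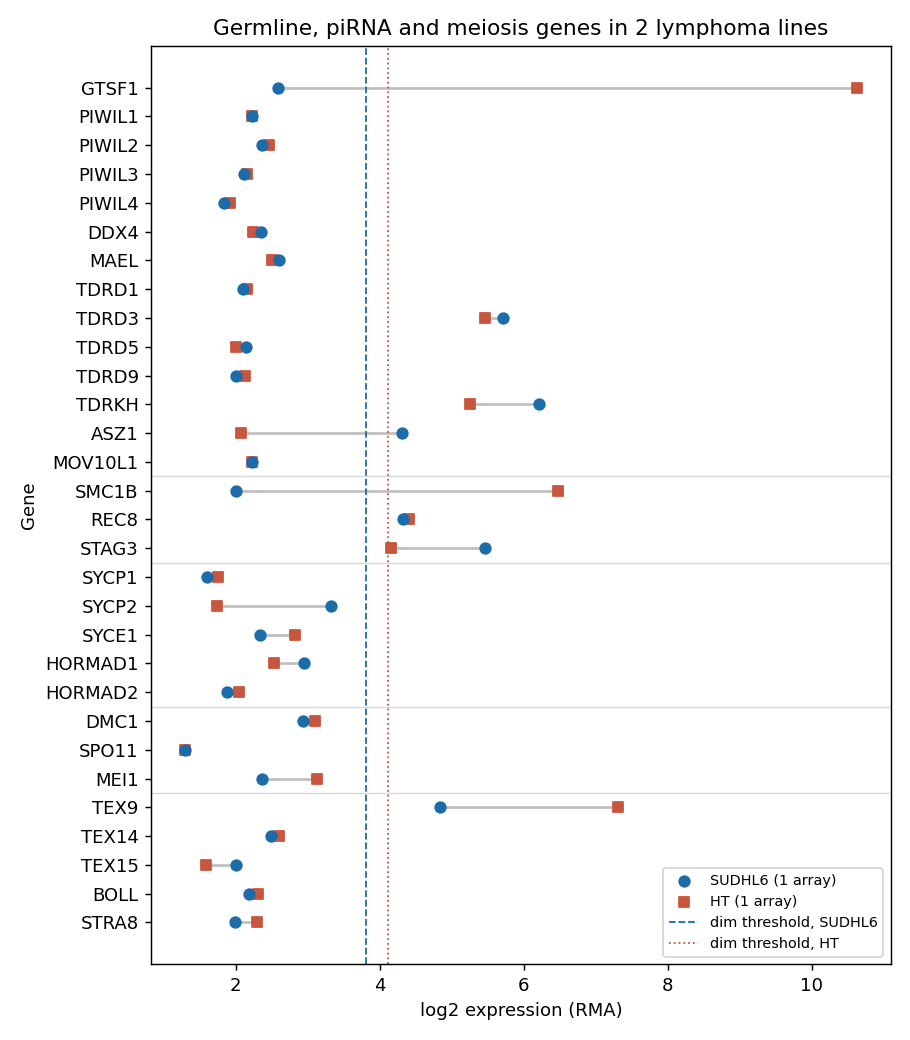
Log2 expression (RMA) of the 30 members with a value, 1 line per gene, with SUDHL6 as circles and HT as squares (1 array each) and the dim threshold of each line as a vertical line; grey rules separate the groups of roles. Most pairs of points overlap below both dim thresholds, while GTSF1 and SMC1B run from below the SUDHL6 dim threshold to 10.63 and 6.48 in HT.

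The stretches of DNA just before the starts of the 5 genes that differed are shown with a motif search, because germline promoters are known targets of a variant Polycomb complex that contains E2F6, MGA and MAX. E2F proteins bind TCCCGC-type sites, and MGA with MAX binds the E-box CACGTG. Both were searched on both strands in the 250 bases before each start in the RefSeq promoter table (GRCh38.p14), and TDRD1, dim in both lines, is shown for its E-boxes. For SMC1B only the bases between its start and the start of its divergent neighbour RIBC2 are shown. Where the table lists several starts of a gene, the first is shown. Matches are in capitals. The arrays carry no data on binding or methylation, so a match is a description of the sequence alone.
GTSF1, chr12:54473603-54473852, minus strand: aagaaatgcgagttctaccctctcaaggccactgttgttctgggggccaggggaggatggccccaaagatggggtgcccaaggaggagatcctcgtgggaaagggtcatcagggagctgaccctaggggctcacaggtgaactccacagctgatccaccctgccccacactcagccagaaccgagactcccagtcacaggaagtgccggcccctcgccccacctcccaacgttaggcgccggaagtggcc
ASZ1, chr7:117427494-117427743, minus strand: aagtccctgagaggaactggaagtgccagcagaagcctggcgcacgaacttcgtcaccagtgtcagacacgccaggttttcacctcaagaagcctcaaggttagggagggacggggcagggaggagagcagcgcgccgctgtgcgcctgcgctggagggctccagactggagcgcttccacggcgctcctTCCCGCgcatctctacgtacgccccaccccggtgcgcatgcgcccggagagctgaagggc
SMC1B, chr22:45413600-45413692, minus strand: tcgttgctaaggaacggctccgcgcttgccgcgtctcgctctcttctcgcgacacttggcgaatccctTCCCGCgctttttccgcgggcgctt
STAG3, chr7:100177474-100177723, plus strand: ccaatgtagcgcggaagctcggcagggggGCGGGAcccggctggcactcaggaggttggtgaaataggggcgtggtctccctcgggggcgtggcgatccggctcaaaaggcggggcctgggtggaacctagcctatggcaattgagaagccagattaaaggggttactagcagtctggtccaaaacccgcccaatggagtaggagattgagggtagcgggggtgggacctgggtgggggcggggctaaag
TEX9, chr15:56365176-56365425, plus strand: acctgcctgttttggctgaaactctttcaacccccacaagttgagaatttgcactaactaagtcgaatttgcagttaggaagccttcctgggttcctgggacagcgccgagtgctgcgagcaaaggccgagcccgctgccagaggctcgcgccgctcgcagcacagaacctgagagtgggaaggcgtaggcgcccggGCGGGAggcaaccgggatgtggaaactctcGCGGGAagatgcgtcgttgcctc
TDRD1, chr10:114179037-114179286, plus strand: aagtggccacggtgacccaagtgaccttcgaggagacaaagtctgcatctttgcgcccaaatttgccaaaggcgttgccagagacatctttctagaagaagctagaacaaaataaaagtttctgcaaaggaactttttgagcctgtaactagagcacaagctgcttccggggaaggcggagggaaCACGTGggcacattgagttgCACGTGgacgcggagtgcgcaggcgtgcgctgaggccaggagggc

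The TCCCGC letters were found once before ASZ1, SMC1B and STAG3 and at 2 places before TEX9 in the stretches shown, and at 0 places before GTSF1. The GTSF1 stretch also held 8 CpG sites, beside 21 for ASZ1, 14 for STAG3, 19 for TEX9 and 13 for TDRD1 over the same length, and 15 in the 93 bases of SMC1B. TDRD1 held 2 E-boxes, which overlap no TCCCGC site. A second listed start of STAG3 held 1 site of each kind in its own 250 bases. The table held 31 of the 37 members with 41 starts. Of these starts, 19 (46.3%) had TCCCGC and 7 (17.1%) had the E-box, beside 23.5% and 6.34% of the 35116 starts in the table. The E-box share turned with the choice of starts. Counting only the first listed start of each gene, 15 of 31 members (48.4%) had TCCCGC and 1 (3.23%) had the E-box, beside 32.3% and 7.96% of genes with a value on the arrays. These are unlike sets, since the 31 include the 7 members without a value of their own. Over the first starts of all genes in the table the shares were 23.5% and 6.49%. The members' stretches had a median of 64.0% C and G. This compares with 58.0% over all starts in the table and 63.2% over the first starts of genes with a value. The part of C and G content in the motif shares was not tested.

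GTSF1, a small zinc finger protein that binds PIWI proteins and is needed for transposon silencing, had the largest excess in HT among the members. Its value was 2.59 in SUDHL6 and 10.63 in HT. The SUDHL6 value lay 1.23 below its dim threshold and the HT value 6.51 above its own, so HT exceeded SUDHL6 at least 112-fold. The difference of -8.04 is taken against a value below background, and with values raised to the dim threshold it was -6.81. The PIWI genes, whose proteins GTSF1 works with, showed no such contrast. PIWIL1 held 2.23 in both lines, PIWIL2 stood at 2.36 in SUDHL6 and 2.46 in HT, PIWIL3 at 2.12 and 2.16, and PIWIL4 at 1.84 and 1.92. All 4 lay below the dim threshold in both lines.

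The mitochondrial scaffold gene ASZ1, whose protein gathers piRNA factors at the outer membrane, went the other way. ASZ1 had 4.32 in SUDHL6 and 2.08 in HT, which put it 2.24 higher in SUDHL6. The SUDHL6 value was only 0.50 above its dim threshold, so the fold was at least 1.15, and with values raised to the dim threshold ASZ1 no longer met the rule. Nor did it with a dim threshold at the 99th percentile. TDRKH, a Tudor protein that anchors PIWI proteins on mitochondria, stood at 6.21 and 5.25, which was 1.95-fold higher in SUDHL6 and just short of a difference of 1, at 0.96. It passed 1 after quantile normalization (1.03) and loess (1.05). A probe set that TDRKH shares with MRPL9 gave 7.43 and 7.56, a difference of -0.13, and this shared signal cannot be given to TDRKH.

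TDRD3, a Tudor protein that partners a topoisomerase and is used in many tissues, was above the dim threshold in both lines, at 5.72 and 5.46. The remaining piRNA genes with a value lay below it in both. They were the PIWI genes, the helicase genes DDX4, MOV10L1 and TDRD9, the Tudor genes TDRD1 and TDRD5, and MAEL, a factor of the germ granule. Across these 10 genes the values ran from 1.84 to 2.59 in SUDHL6 and from 1.92 to 2.503 in HT, with differences between -0.12 and 0.14. DDX4, a classical germ cell marker, stood at 2.35 and 2.24. TDRD6 was measured only together with neighbours. A probe set shared with SLC25A27 gave 9.82 in SUDHL6 and 7.90 in HT, and another shared with PLA2G7 gave 2.05 and 2.39, so the shared signal cannot be given to TDRD6.

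**Figure D2:**
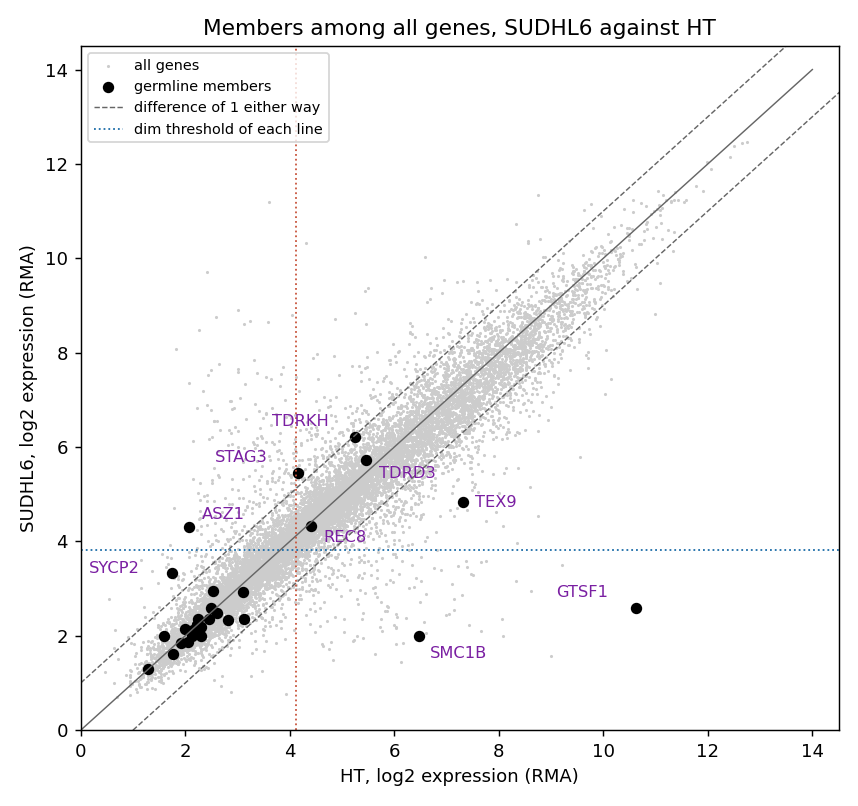
SUDHL6 against HT log2 expression (RMA) of all 14232 genes (grey) and the 30 members (black), with the line of equality, dashed lines at a difference of 1 and dotted dim thresholds. GTSF1 and SMC1B sit far to the right and low, ASZ1 and STAG3 lie above the upper dashed line, and most members crowd the lower left corner.

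The meiotic cohesin subunits gave 3 different patterns. SMC1B, the meiotic form of the SMC1 arm of the cohesin ring, had 1.998 in SUDHL6 against 6.48 in HT, a difference of -4.48, and HT was higher at least 6.35-fold. With values raised to the dim threshold the difference was -2.67. STAG3, which docks on the ring in meiosis, was higher in SUDHL6, at 5.46 against 4.16, or 2.46-fold. The HT value lay just 0.05 above its dim threshold. The STAG3 difference of 1.30 was just outside the olfactory receptor range, which ends at 1.26. STAG3 has near-identical partial copies elsewhere on its chromosome, and its values are uncertain for that reason. A probe set it shares with PILRB stood at 7.42 and 6.12, and another shared with PVRIG and PILRB differed by 0.33. These shared signals cannot be given to STAG3. REC8, the meiotic kleisin that closes the ring, was alike in both lines, at 4.33 and 4.40. These values lay only 0.51 and 0.29 above the dim thresholds. With the dim threshold at the 99th percentile, 4.37 in SUDHL6 and 4.78 in HT, both fell below it.

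Genes for the mitotic cohesin ring were measured beside them. SMC1A stood at 8.37 and 8.39, SMC3 at 9.14 and 9.48, RAD21 at 10.25 and 9.86 and STAG2 at 7.38 and 7.62 in SUDHL6 and HT. All 6 mitotic counterparts of the meiosis genes on the list that were measured passed the threshold, and 0 of the 6 were apart by 1 or more. As 8.12% of all genes met the rule, 0 of 6 does not set these genes apart.

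The genes of the chromosome axis and of synapsis lay below the dim threshold in both lines in all 5 cases. SYCP2, a protein of the lateral element, was the odd one among them, at 3.32 in SUDHL6 and 1.74 in HT. Its difference of 1.58 was past 1, but even the higher value fell short of the dim threshold, so it did not count as different. SYCP1, the transverse filament, stood at 1.61 and 1.76 and the central element gene SYCE1 at 2.34 and 2.82. The axis genes HORMAD1 and HORMAD2 stood at 2.95 and 2.53 and at 1.88 and 2.05. SYCP3 was seen only on a probe set shared with CHPT1, at 2.76 and 2.64.

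The recombination genes were also dim in both lines. SPO11, the enzyme that cuts DNA to start recombination, held 1.30 in both lines, exactly the same value. DMC1, the meiotic recombinase, stood at 2.93 and 3.10. MEI1, needed for break formation, had the largest difference of these 3, with 2.36 in SUDHL6 and 3.13 in HT. MSH5, whose protein stabilises crossover intermediates with MSH4, was measured on a probe set shared with SAPCD1, at 6.67 and 5.84. The probe set of MSH4 and RABGGTB stood at 1.79 and 1.90. Identical values on both arrays occurred for 3 members (PIWIL1, MOV10L1 and SPO11) and for 681 of the 22011 probe sets (3.09%).

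Among the testis-expressed genes, TEX9 alone of the 5 with a value met the rule. TEX9 stood at 4.83 in SUDHL6 and 7.31 in HT, above the dim threshold in both, and was 5.56-fold higher in HT. As both values were above the dim threshold, this fold is measured and not a bound. TEX14, a protein of the bridges between germ cells, stood at 2.49 and 2.60, and TEX15, which acts in meiotic recombination and piRNA-guided silencing, at 2.003 and 1.59. BOLL, an RNA-binding protein of the DAZ family, stood at 2.19 and 2.31. STRA8, the gatekeeper of meiotic entry, stood at 1.99 and 2.30. The probe set that names DAZL together with DAZ family copies lay at 2.99 and 2.54, below the dim threshold.

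The genes beside the 5 differing members were examined to see whether neighbours differed too, taking the 3 genes with a value on each side in the order of the RefSeq gene table. Of the 30 neighbours, 4 (13.3%) met the rule, beside 8.12% of all genes. Around GTSF1 the 6 neighbours differed by 0.00 to 0.38. NCKAP1L, the next gene on one side and a regulator of actin in blood cells, stood at 8.19 and 7.80, and the integrin gene ITGA5 on the other side held 4.03 in both lines. The HT value of ITGA5 lay 0.09 below the dim threshold and that of ZNF385A only 0.08 above it. GPR84 and LACRT lay below the dim threshold in both lines. Around ASZ1 the 6 neighbours lay between -0.32 and 0.49, with WNT2 at 2.90 and 2.69 and CFTR at 2.40 and 2.65. For both members 0 of the 6 neighbours met the rule. WNT2 and CFTR, the genes next to ASZ1, lay below the dim threshold in both lines, as did MET and CTTNBP2. Such genes could hardly show a difference, so the neighbours say little about ASZ1. The same limit holds for the dim neighbours of GTSF1.

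SMC1B and RIBC2 start close together on opposite strands. RIBC2 had 3.24 in SUDHL6 against 4.23 in HT, and this difference of -0.99, in the direction of SMC1B, fell just short of 1. The RIBC2 difference lies inside the olfactory receptor range. Its SUDHL6 value lay 0.57 below the dim threshold and its HT value only 0.12 above. FAM118A, on the other side, was 2.24-fold higher in SUDHL6 (6.09 against 4.93), opposite to SMC1B. The FAM118A difference of 1.16 lies inside the olfactory receptor range.

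STAG3 lay beside other genes that were higher in SUDHL6. CASTOR3P, whose span overlaps STAG3 in the RefSeq table, stood at 5.75 and 4.39, or 2.56-fold. Whether the probes of either gene lie in the overlap was not examined, so the values of STAG3 and CASTOR3P may not be separate. ZCWPW1, a histone reader that works in meiotic recombination, stood at 4.10 and 2.92. Its difference of 1.19 lies inside the olfactory receptor range, and its SUDHL6 value was only 0.29 above the dim threshold. GPC2, on the other side, differed by -0.09.

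TEX9 and its neighbour MNS1 differed in opposite directions. MNS1, a structural protein of meiotic nuclei and sperm tails, stood at 7.93 in SUDHL6 and 4.84 in HT, 8.5-fold higher in SUDHL6, while TEX9 was higher in HT. The spans of the genes overlap in the RefSeq table, and their listed starts are on opposite strands. RFX7, which also overlaps TEX9, differed by 0.42. The sources used here do not say whether the probes of TEX9 lie in the overlaps, so the values of TEX9 and MNS1 are uncertain to that extent.

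**Figure D3:**
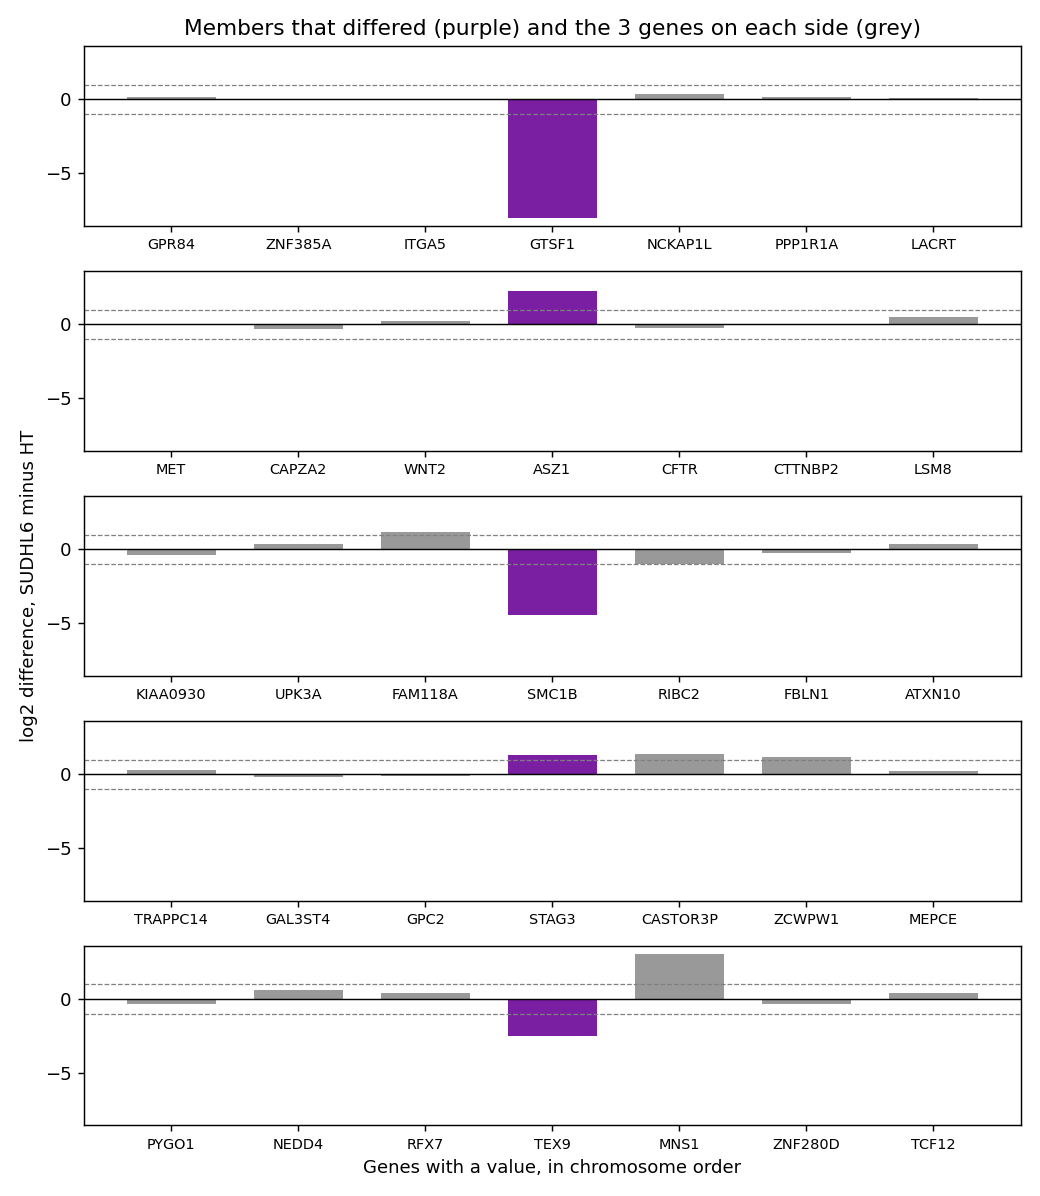
Log2 difference, SUDHL6 minus HT, of the 5 members that differed (purple bars) and of the 3 genes with a value on each side in chromosome order (grey bars), 1 panel per member, with dashed lines at 1 and -1. GTSF1 and ASZ1 have no neighbour past 1 either way, though several of their neighbours were dim. STAG3 has 2 neighbours past 1 on the same side of 0, and MNS1 rises to 3.09 beside TEX9 at -2.47.

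Other genes of the same pathways were taken from lists of related genes. Over all genes, 66.1% reached the dim threshold and 8.12% met the rule. In lists of this size, 0 or 1 gene that differed is near that share. Of 14 other piRNA pathway genes with a value, 8 reached the dim threshold and 1 differed. It was PRMT5, the arginine methyltransferase whose marks Tudor proteins bind, which stood at 6.47 in SUDHL6 and 7.67 in HT, 2.3-fold higher in HT. The median difference was 0.02. Of 17 other meiosis genes, 8 reached the dim threshold and 0 differed, with a median of -0.12. The cofactor gene MND1 of DMC1 stood at 7.84 and 7.55, and SGO2, a guardian of centromeric cohesin, at 7.01 and 7.70. All 9 argonaute and small RNA genes reached the dim threshold, and 1 of them differed. XPO5, the exporter of microRNA precursors, stood at 8.34 and 7.24, or 2.15-fold higher in SUDHL6. Its difference of 1.10 lies inside the olfactory receptor range. The median of the 9 genes was -0.19.

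Further germ cell lists were mostly dim. The shares over all genes were again 66.1% reaching the dim threshold and 8.12% meeting the rule, and the counts that differed were near the latter. Of 16 cancer-testis antigen genes, 6 reached the dim threshold and SPAG9, a scaffold of JNK signalling, differed, at 7.41 and 8.50, or 2.13-fold higher in HT. Of 16 germ cell identity genes, 3 reached it and TCL1A, which B cells are also known to express, differed, at 7.45 and 5.80, or 3.14-fold higher in SUDHL6. Of 18 postmeiotic sperm genes, 3 reached it and 0 differed, with ODF2 at 6.84 and 7.62 and ACR at 4.86 and 3.92. The medians of these 3 lists were -0.16, 0.03 and -0.00.

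The repressors known at germline genes that had a value differed by less than 1 throughout. Of 20 listed, 17 had a value, and MGA, RNF2 and TFDP1 had none. Of the 17, 15 reached the dim threshold and 0 met the rule, with a median of 0.04. Over all genes 66.1% reached it and 8.12% met the rule, so 0 of 17 does not set the repressors apart. E2F6, which recruits the variant Polycomb complex, stood at 4.41 and 3.68, a difference of 0.74. The HT value of E2F6 lay 0.43 below its dim threshold. Its partner MAX stood at 6.90 and 7.44 and L3MBTL2 at 5.33 and 5.75. The histone deacetylase genes HDAC1 and HDAC2 stood at 10.62 and 10.84 and at 9.14 and 9.40. RNA levels do not give protein or activity.

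**Figure D4:**
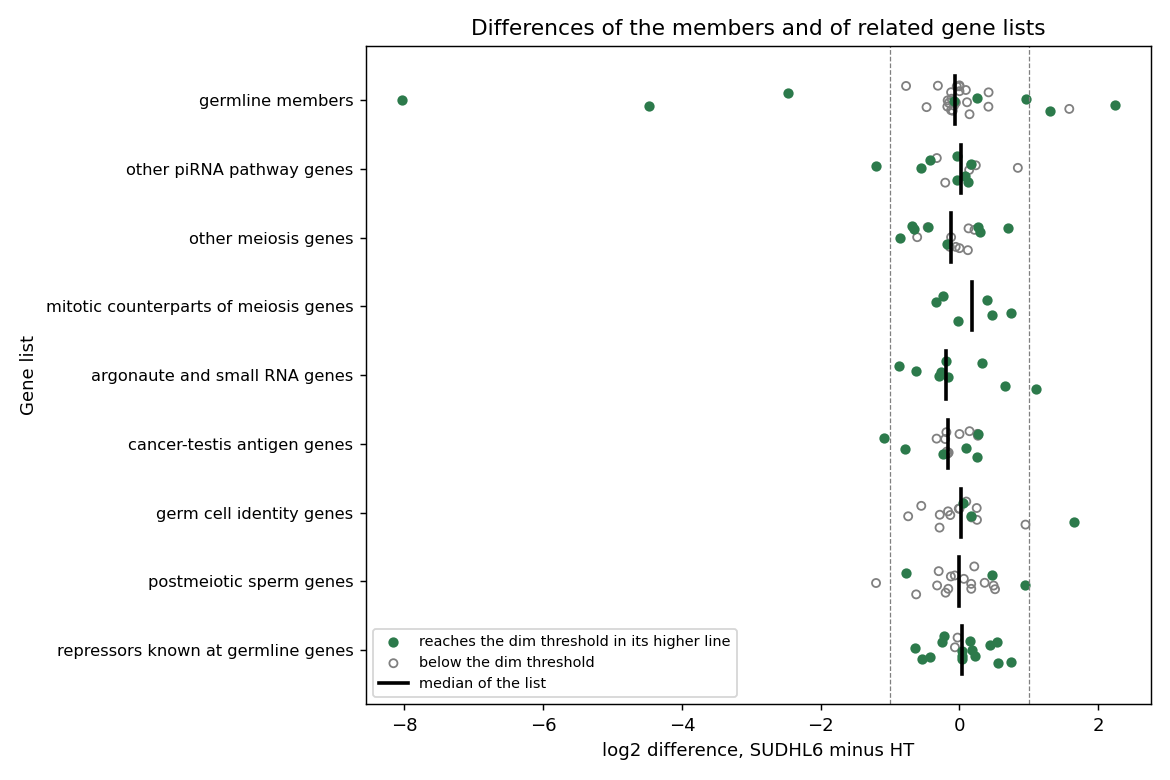
Log2 difference, SUDHL6 minus HT, of each member and each gene of 8 related lists, filled where the gene reached the dim threshold in its higher line and open where it did not, with a bar at the median of each list and dashed lines at 1 and -1. The bars all lie within 0.2 of 0, and the points beyond -2 or 2 all belong to the members.

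The labels were checked against cell type markers. All 7 B cell markers with a value reached the dim threshold in both lines, and MS4A1 (CD20) was 6.01-fold higher in SUDHL6, at 11.33 against 8.75. T cell receptor genes CD3D, CD3E and CD3G lay between 2.43 and 3.05, below the dim threshold, and 2 of 6 T cell markers (CD5 and CD7) and 1 of 5 myeloid markers (TYROBP) reached it. Of 7 Sertoli and Leydig cell markers, genes of the somatic testis, 4 reached the dim threshold. SOX9 stood at 4.87 and 5.30, INSL3 at 4.49 and 4.30 and DHH at 3.98 and 4.44, above it in both lines. INHA, at 4.18 and 2.95, met the rule as higher in SUDHL6. Its difference of 1.23 lies inside the olfactory receptor range. FSHR, CYP17A1 and STAR were below the dim threshold in both lines. Markers can reach the dim threshold without their cell type, since it was set from 1 gene family. With a level from taste receptor, keratin-associated protein and beta-defensin genes it was 5.72 in SUDHL6 and 5.79 in HT, and ASZ1 and STAG3 no longer met the rule, while GTSF1, SMC1B and TEX9 did.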

How the data were processed

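Total RNA of 2 lines was measured on 1 Affymetrix exon array each. The authors deposited log2 values after RMA, with RMA and Affymetrix Expression Console named in the submitters' processing notes. The sources used here give no versions, settings or genome build. RMA can compress small differences of dim genes.

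Of 22011 probe sets, 14432 name 1 gene in the platform annotation and 2408 name several. Symbols were updated by gene number to RefSeq (GRCh38.p14), matching 14404. Each gene took its probe set with the highest mean. Members, lists and rules were chosen with earlier results of these data known. Named were all members with a value, the neighbours of those that differed, and of other lists up to 4 genes that differed or else those with the highest mean; other named genes were chosen after their values were seen. Alternatives covered scaling, dim threshold, low values, probe set choice and size of difference. The counting step was tested on simulated data without noise, with differences planted only in genes above the dim threshold. That checks the arithmetic of the rule and says nothing about noise or dim genes. Python 3.11.15, pandas 2.3.3, numpy 2.4.6 and statsmodels 0.14.6 were used. No sample values outside these columns were used.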

Additional observations from a re-analysis of the deposited data

How the results depend on the processing

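GTSF1, SMC1B and TEX9 were higher in HT under all 12 alternatives tried for the count of members, and the total of 5 members stayed between 4 and 6, except that it was 3 with the dim threshold from taste receptor, keratin-associated protein and beta-defensin genes. The count higher in SUDHL6 was 2. It fell to 1 with the dim threshold at the 99th percentile, to 1 with values raised to the dim threshold and to 1 at a size of difference of 2, and to 0 with the dim threshold from the other gene families. It was 3 under quantile normalization, loess and a size of difference of 0.5 (TDRKH added), with no filter on low values (SYCP2 added) and when probe sets of several genes were added (TDRD6 added). The members' median of -0.06 was 0.091 over the 8 members that reached the dim threshold and -0.30 with values raised to the dim threshold, the value that raising gives to a gene dim in both lines. Over 150 member differences recomputed under the scaling and probe set alternatives, 149 moved by less than 1 SD of the olfactory receptor differences (0.63). TDRKH moved to -0.13 with probe sets naming several genes included. Many of the 149 could not move. Each member with a value had only 1 probe set of its own, so averaging own probe sets changed none. Shared probe sets could change only TDRKH and STAG3, and centring moved members by no more than 0.0076. The count of 149 is thus no measure of stability. Raising values to the dim threshold moved ASZ1 from 2.24 to 0.20, GTSF1 from -8.04 to -6.81 and SMC1B from -4.48 to -2.67. The count of differing genes in the other lists was 4, and 3 to 5 under the alternatives. No paired analysis was possible because each line has 1 array. Leaving out an array was likewise impossible. Signal close to the dim threshold limits ASZ1 and STAG3 most.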

Other observations

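A few genes outside the members had unequal values although both lines lay below the dim threshold. The sperm lactate dehydrogenase gene LDHC had 2.33 in SUDHL6 against 3.54 in HT, a difference of -1.20, with both values below the dim threshold. GTSF1L, the paralog of GTSF1, stood at 3.48 and 2.64, also below it in both lines. LIN28A, a regulator of let-7 microRNAs in germ and stem cells, stood at 3.40 and 2.45. The differences of GTSF1L (0.84) and LIN28A (0.95) lie inside the olfactory receptor range, so genes taken as unexpressed vary as much. These genes were chosen after their values were seen.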
